A study of Mus musculus with 4 samples.

Results

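Old LINE1 families are the worn copies of the LINE1 retrotransposon that entered the mouse genome long ago, named Lx, L1M, L1P and a few others. Their small RNAs were taken from the deposited table as sequences of 25 to 31 nt, the lengths of piRNAs, that carried the class LINE, the family L1 and a name not beginning with L1Md, L1_Mm, L1_Mus, L1_Mur or L1VL, the names of young LINE1. Each sequence got the name with most reads over the libraries and was counted once per library. This gave 98373 of the 3075975 distinct sequences of those lengths, with 480195 reads under 117 of 842 transposon names. Lx had 21 names and 55251 sequences, L1M had 83 names and 30382 sequences, and L1P had 2 names and 21 sequences. The 4 L1Lx names held 10717 sequences, and 7 further names, L1_Rod, X9_LINE and HAL1 names among them, held 2002. For comparison, young LINE1 had 30 names and 64770 sequences.

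The libraries came from whole testes of mice aged 16 days, with 2 biological replicates of the wild type and 2 with a knockdown of Hsf5, a testis heat shock factor. The design asked how piRNAs change when Hsf5 is reduced. The labels give neither the strain nor the knockdown method, the deposited table calls the same libraries knockouts, and the degree of the knockdown was not checked here. Adaptors were ligated to both ends of small RNA from total RNA.

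piRNAs are small RNAs of the germline that guide PIWI proteins to transposon transcripts and to genomic DNA, and most begin with U. In the ping-pong cycle a PIWI protein cuts its target opposite base 10 of the guide, so that secondary piRNAs tend to carry A at base 10 and pair with the primary piRNA over 10 nt. In spermatocytes the bulk of piRNAs instead comes from long single-stranded transcripts of pachytene piRNA loci, processed without ping-pong partners, and old transposon copies embedded in those loci are read along with them. Old LINE1 copies no longer move, whereas some young L1Md copies do.

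The sequences with most reads show both kinds of length and the sharing of 5′ ends. They are printed 5′ to 3′ as in the table, with T for U, and the capitals mark base 1 and base 10. The first 2 lines are Lx names, the next 3 are 1 L1M name, L1ME2, at 3 lengths, and the last is the leading L1P sequence.
Lx6: TgactgtgtGgctccactggcaagg
Lx8: TacaataagAtgcttctctgaccaagg
L1ME2, 30 nt: TcaagatacAgaacacttccattgcccccc
L1ME2, 29 nt: TcaagatacAgaacacttccattgccccc
L1ME2, 28 nt: TcaagatacAgaacacttccattgcccc
L1P5: TcgtttgggAaatgaaggtatctgg

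Each of these 6 sequences had 1 exact place in GRCm39, the build mm39 of the submitters' notes. The Lx6 sequence, 25 nt long, lay at chr17:27552506-27552530 on the plus strand, sense to an intron of the lncRNA Gm10505 and inside the piRNA locus 17-qA3.3-26735. Its reads numbered 623 and 690 in the 2 wild-type libraries and 1049 and 1108 in the 2 knockdown libraries, replicate 1 first. Per 1000000 reads of 25 to 31 nt (RPM) these were 108, 130, 241 and 158. Both knockdown values lay above both wild-type values, and the sequence was chosen by its reads. The Lx8 sequence, 27 nt long, lay at chr15:59145792-59145818 on the minus strand, sense to an intron of the lncRNA Gm62428 in locus 15-qD1-17920. It had 52.7, 81.5, 82.9 and 139 RPM in the same order, with the wild type lowest in replicate 1.

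The L1ME2 forms began at 1 base and ended at 3 consecutive bases, at chr17:27520784-27520813 for the longest, on the minus strand, antisense to an intron of the lncRNA Gm65436 and inside locus 17-qA3.3-27363. All 3 carried U at base 1 and A at base 10. The 30 nt form had 656, 747, 281 and 617 reads, the 29 nt form 660, 708, 496 and 368, and the 28 nt form 581, 623, 578 and 237. Reads of any length from that 5′ end made up 72.2% of all L1ME2 reads. In knockdown replicate 1 the 30 nt form was 15.9% of them against 28.4% and 28.0% in the wild type and 39.2% in knockdown replicate 2. The L1P5 sequence lay at chr6:127775181-127775205 on the plus strand, sense to an intron of the lncRNA Gm40402, and had 0, 5, 0 and 4 reads.

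The Lx sequence with the most reads had no exact place in the genome. It was named Lx2 and is shown beside a sequence that the table puts in its class of non-coding RNA, which has the letters of the 5′ part of a glycine transfer RNA.
Lx2, 30 nt: GcatttgtgGttcagtggtagaattctcgc
ncRNA class: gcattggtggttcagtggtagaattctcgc
The substitution from the ncRNA sequence to the Lx2 sequence was G6T, with positions counted from 1 at the 5′ end. The ncRNA sequence had 71222 reads over the 4 libraries and the Lx2 sequence 224, 198, 2294 and 1576. Among old LINE1, 329 sequences had no genome place and stood 1 base from an ncRNA or miRNA sequence with at least 1000 reads and 10 times their own. They held 1626, 992, 4450 and 2937 reads, and 318 of them were named Lx2. Differences of Lx in share, first-base U and base 10 are therefore also given without them. The Lx values printed for each library, lengths among them, include them unless stated.

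The libraries had 11117460, 9260452, 9619666 and 10900306 reads in all, in the order used throughout: wild type replicates 1 and 2, then knockdown replicates 1 and 2. Of these 5745703, 5326809, 4352106 and 7025053 were 25 to 31 nt long. Knockdown replicate 1 stood apart. Its share of 29 to 31 nt reads among all 25 to 31 nt reads was 18.2%, against 33.0%, 31.8% and 37.6% in the others, and 28 of 214 piRNA loci had in it under 5% of their RPM in the lowest other library. Summed marker miRNAs of spermatocytes (miR-34b, miR-34c, miR-449a) ranged from 1142 to 1599 per 1000000 counted reads for wild type and from 1315 to 1737 for knockdown. Those of spermatogonia (miR-21a, miR-221, miR-222) were 417, 373, 520 and 198, those of Sertoli and interstitial cells ranged from 7045 to 8881 over the 4 libraries, and those of blood and endothelium were 804, 726, 856 and 276. Of the Sertoli and interstitial markers, miR-143 stood at 5308, 5254, 6555 and 7008, whereas miR-202 was at 788, 567, 825 and 313 and miR-145a at 1995, 1224, 1501 and 751. Among those of spermatocytes, miR-34c ranged from 864 to 1265, and miR-34b was at 251, 356, 417 and 93.8 and miR-449a at 26.98, 40.2, 54.3 and 14.3. Knockdown replicate 2 was thus the lowest library for miR-202, miR-145a, miR-34b and miR-449a, which the sums do not show. All 12 markers were detected, and their part in the results was not tested. In whole testis fewer cells of a type and less RNA per cell cannot be told apart. Reads are PCR products without molecular identifiers, so counting intervals cover counting error only, and p-values measure the spread between 2 libraries a group.

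Old LINE1 made up 1.89%, 2.32%, 2.02% and 2.28% of the 25 to 31 nt reads, or 108603, 123479, 87932 and 160181 reads. Both knockdown values lay between the wild-type values. The means were 2.10% ± 0.303 (SD, n = 2) in the wild type and 2.15% ± 0.184 (SD, n = 2) in the knockdown, and the two-sided exact permutation test, with 6 assignments of libraries, gave p = 1. With 2 libraries a group that test cannot go below 0.333. Lx held the larger part, with 0.978%, 1.20%, 1.09% and 1.17%. L1M held 0.722%, 0.919%, 0.797% and 0.908%. For both sets the genotypes overlapped (exact permutation p = 1). The knockdown share of old LINE1 was 0.0462 percentage points above the wild type, and 0.00142 below it without the sequences 1 base from an ncRNA or miRNA.

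L1Lx names were at 0.165%, 0.165%, 0.1003% and 0.178%, with only knockdown replicate 1 apart. The other old names were at 0.0264%, 0.0311%, 0.0315% and 0.0246%. L1P was at the limit of detection, with 4, 11, 4 and 16 reads. Young LINE1, for comparison, took 1.33%, 0.939%, 0.910% and 1.02%, with wild type replicate 1 highest.

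**Figure D1:**
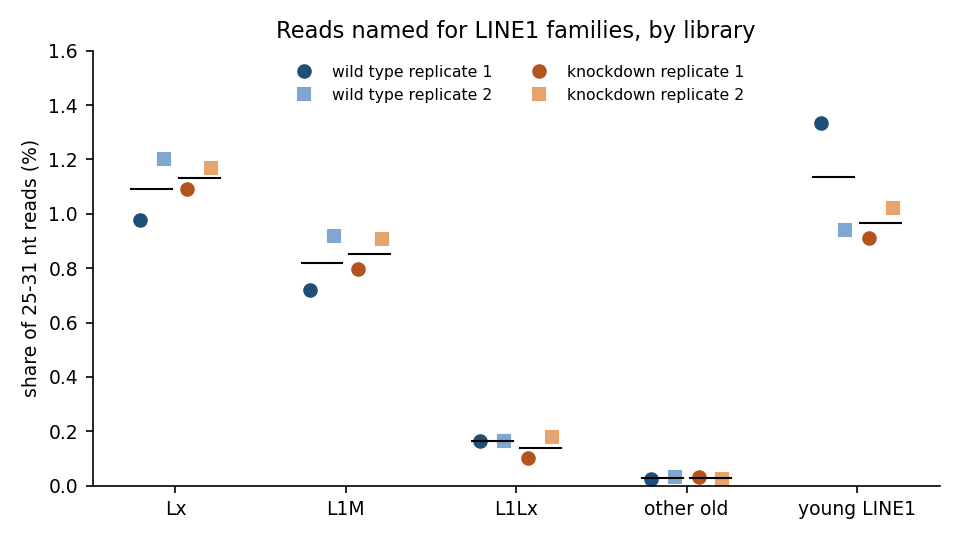
Share of 25 to 31 nt reads (%) named for Lx, L1M, L1Lx, the other old LINE1 names and young LINE1, 1 point per library with short lines for the mean of each genotype. For Lx and L1M the 2 knockdown points lie between the 2 wild-type points; for L1Lx knockdown replicate 1 lies lowest, at 0.1003%.

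Within L1M, the letter groups are usually read as running from the younger L1MA to the older L1ME, and L1MB had most reads among them, with 43583. The 23 names that are L1M alone or L1M followed by a digit held 63429 reads, led by L1M2. L1ME held 24353, L1MD 21647, L1MC 20111 and L1MA 15757. L1MC took 0.0826%, 0.105%, 0.0520% and 0.107% of the 25 to 31 nt reads, lowest in knockdown replicate 1. L1ME took 0.110%, 0.1245%, 0.1197% and 0.0885%, lowest in knockdown replicate 2.

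Reads of old LINE1 began with U in 82.4%, 85.9%, 82.1% and 87.5%. L1M was at 87.4%, 89.2%, 88.6% and 91.5%. Lx was lower in each library, at 79.7%, 83.8%, 77.8% and 84.4%. The Lx value minus the L1M value averaged -7.72 percentage points ± 2.22 (SD over 4 libraries), negative in 4 of 4. The exact sign-flip permutation test gave p = 0.125, the smallest that 4 pairs allow, and 0.143 after Benjamini-Hochberg adjustment over 16 such comparisons. Without the sequences 1 base from an ncRNA or miRNA the mean difference was -4.02, and with sequences of 1 genome place only it was -3.14. Lx2 had U at base 1 in 44.3% of its reads, against a range from 71.6% to 90.3% over the other Lx names.

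Old LINE1 carried U first more often than young LINE1, which had 69.6%, 74.5%, 74.5% and 79.3%. The difference averaged 9.98 points ± 2.55 (SD over 4 libraries), higher in 4 of 4 (exact sign-flip permutation p = 0.125, adjusted 0.143). With sequences of 1 genome place only, the sets stood closer. First-base U was then 84.9%, 87.7%, 87.4% and 89.9% in old LINE1 and 78.7%, 85.3%, 85.9% and 87.8% in young LINE1. Inside piRNA loci the order was the other way in each library, with the values given below. Between genotypes first-base U overlapped in old LINE1, Lx and L1M, with exact permutation p of 1, 1 and 0.667.

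A at base 10 was found in 26.1%, 26.3%, 23.1% and 25.7% of old LINE1 reads. Over the other positions from 2 to 25 the median share of A was 24.7%, 24.98%, 23.7% and 24.9% in the same reads, and the highest position reached 35.95%, 36.9%, 37.4% and 37.0%. Base 10 was thus not the position richest in A. In young LINE1 reads, base 10 had 39.4%, 38.3%, 36.1% and 40.3% A, against a median of 28.7%, 28.3%, 27.4% and 28.2% elsewhere. Their highest other position reached 37.0%, 37.8%, 37.9% and 39.4%, so that base 10 was the richest in A in 3 of 4 libraries and not in knockdown replicate 1. Old minus young averaged -13.2 points ± 1.10 (SD over 4 libraries; lower in 4 of 4, exact sign-flip permutation p = 0.125, adjusted 0.143).

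Lx and L1M did not separate at base 10. Lx had 24.8%, 25.9%, 22.2% and 26.3% A, and L1M 26.4%, 26.5%, 24.1% and 24.03%. The mean difference was -0.46 points ± 1.87 (SD over 4 libraries; negative in 3 of 4, exact sign-flip permutation p = 0.75). L1M was lower in both knockdown libraries than in both wild-type libraries, by 2.40 points on average, and so was old LINE1 as a whole, by 1.83. Both tests stood at the floor of the design (exact permutation p = 0.333, adjusted 1 over 16 comparisons). The L1M name L1ME2 had A at base 10 in 85.5% of its reads, and its level was 549, 672, 594 and 313 RPM. Its part in the lower knockdown values was not tested. The 35 L1P reads had U first in 82.9% (95% exact Clopper-Pearson interval 66.4 to 93.4), A at base 10 in 34.3% (19.1 to 52.2) and 29 to 31 nt in 25.7% (12.5 to 43.3). Those intervals take in the values of Lx and L1M. They treat the pooled reads as independent, whereas 9 of the 12 L1P reads with A at base 10 were of the L1P5 sequence printed above.

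**Figure D2:**
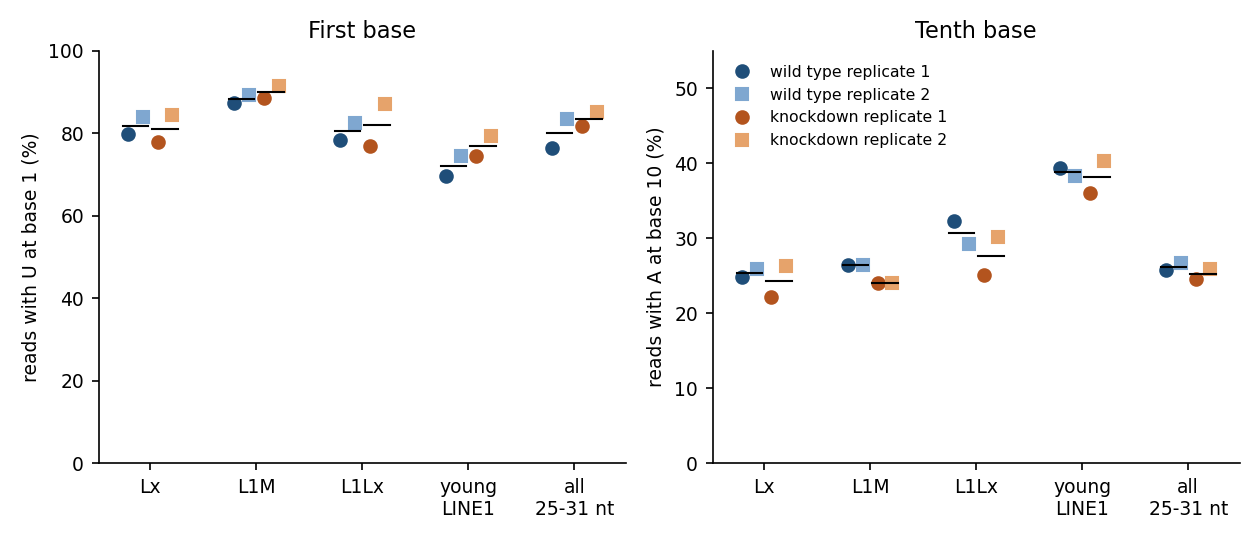
Reads (%) with U at base 1, left, and with A at base 10, right, for Lx, L1M, L1Lx, young LINE1 and all 25 to 31 nt reads, 1 point per library with short lines for genotype means. L1M is highest at base 1 (87.4% to 91.5%), and young LINE1 stands above both old sets at base 10 (36.1% to 40.3%).

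The share of A at base 10 differed with the number of exact places a sequence had in the genome. Old LINE1 reads were mostly of sequences with 1 place, 74.6%, 77.7%, 76.9% and 76.7% of them, and 5.52%, 4.29%, 3.08% and 4.42% had over 10 places. In young LINE1 the 1-place share was 19.3%, 25.6%, 27.6% and 22.0%, and over 10 places held 56.2%, 51.8%, 50.9% and 57.8%. Among 1-place reads, A at base 10 was 25.4%, 25.7%, 24.4% and 25.2% in old LINE1 and 26.5%, 26.4%, 25.5% and 27.3% in young. The old value was lower in each library, by 1.25 points on average, against 13.2 over reads of any number of places.

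Among reads of over 10 places the old value was 39.1%, 39.5%, 32.4% and 41.5%, and the young value 48.2%, 48.3%, 46.2% and 48.5%. L1Lx, with 29.3%, 23.7%, 23.5% and 23.8% of its reads in that class, had 43.5%, 41.9%, 36.3% and 41.7% there. In L1M only 55, 40, 59 and 91 reads had over 10 places. Reads without an exact place were 12.6%, 11.1%, 15.2% and 11.8% of old LINE1, and 22.99%, 25.5%, 15.3% and 22.2% of them had A at base 10, lowest in knockdown replicate 1. The number of places of a read also goes with the age and copy number of its family, and these cannot be told apart here.

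**Figure D3:**
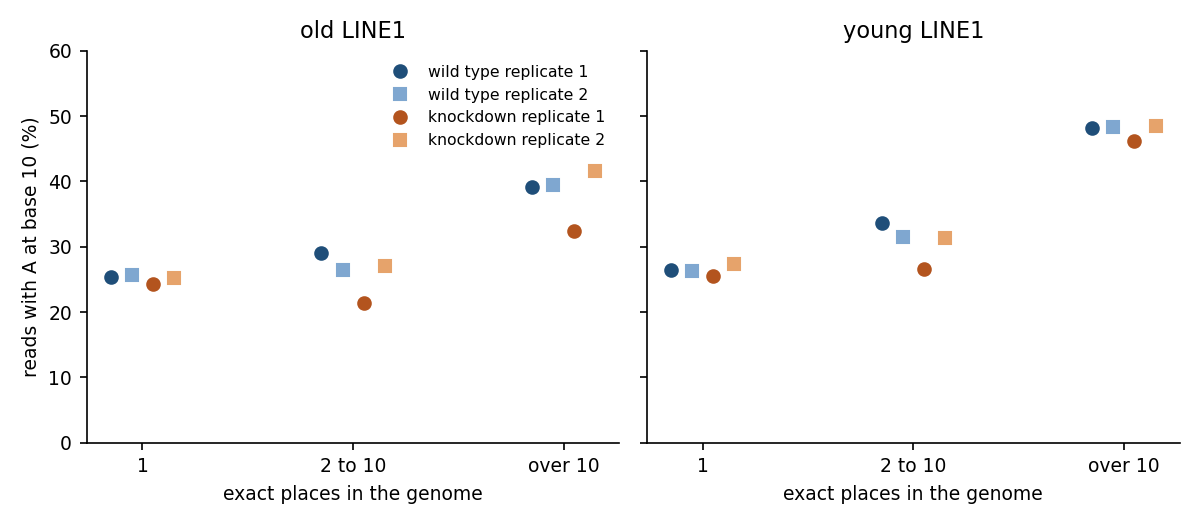
Reads (%) with A at base 10 by the number of exact places of their sequence in the genome, for old LINE1, left, and young LINE1, right, 1 point per library. Every library is highest at over 10 places in both panels, and at 1 place both panels lie within 24.4% to 27.3%; the lowest point shown for old LINE1 is knockdown replicate 1 at 2 to 10 places (21.4%). Reads without an exact place are not drawn.

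Old LINE1 reads were most common at 25 nt in 3 libraries and at 26 nt in knockdown replicate 2. The most common length of Lx was 25 nt in all 4 libraries. L1M was most common at 27, 26, 26 and 27 nt. The mean length of Lx was 26.99, 26.94, 26.50 and 27.23 nt, and that of L1M 27.50, 27.41, 26.72 and 27.66 nt. Lx was shorter in 4 of 4 libraries, by 0.41 nt ± 0.13 (SD; exact sign-flip permutation p = 0.125, adjusted 0.143).

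Reads of 29 to 31 nt, the lengths that the pachytene PIWI protein MIWI binds, were 22.9%, 23.0%, 13.7% and 28.1% of Lx and 30.8%, 30.1%, 13.2% and 34.9% of L1M. The Lx value minus the L1M value averaged -5.33 points ± 3.94 (SD over 4 libraries). It was negative in 3 of 4 and 0.531 in knockdown replicate 1 (exact sign-flip permutation p = 0.25, adjusted 0.267). Knockdown replicate 1 was lowest and knockdown replicate 2 highest in both sets. Sequences of 1 genome place leave out those 1 base from an ncRNA or miRNA sequence. Among them the shares were 18.8%, 18.9%, 5.86% and 22.6% of Lx and 28.7%, 27.7%, 12.1% and 32.5% of L1M. The same order held over all 25 to 31 nt reads, with the values given above for that library. The knockdown mean of old LINE1 was 22.5% ± 12.8 against 26.6% ± 0.0455 in the wild type (SD, n = 2 each; exact permutation p = 1). Without knockdown replicate 1 the knockdown stood 4.92 points above the wild type, and without replicate 2 it stood 13.1 points below.

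**Figure D4:**
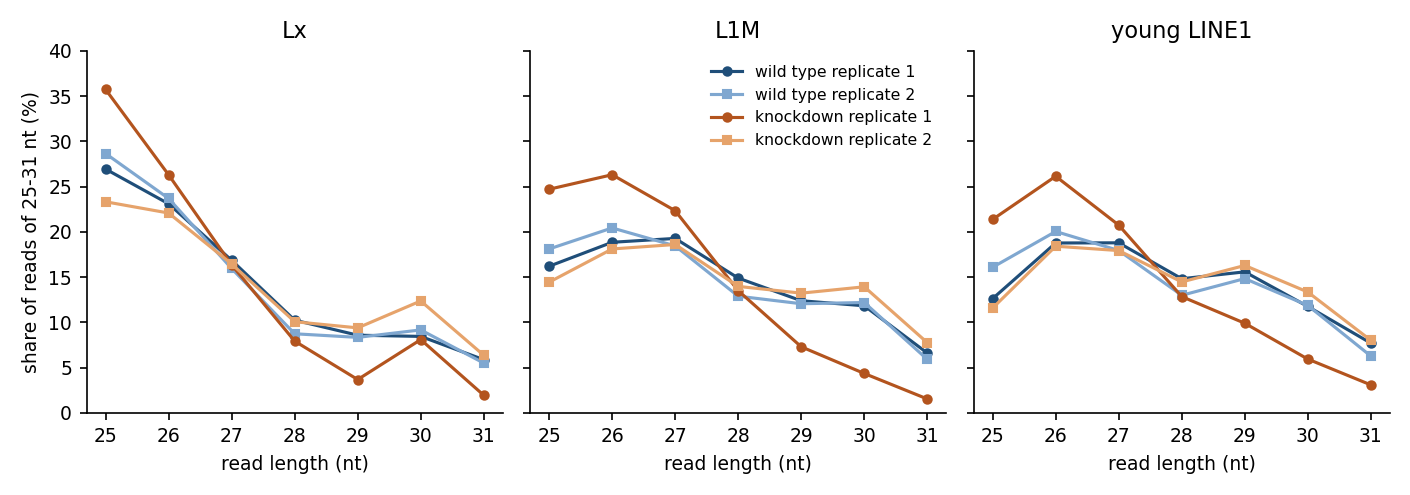
Share of reads (%) at each length from 25 to 31 nt for Lx, L1M and young LINE1, 1 line per library. Lx is highest at 25 nt in every library, and the line of knockdown replicate 1 lies above the others at 25 and 26 nt and below them at 29 to 31 nt in each panel, with a gap of under 1 point to the wild type at 30 nt in Lx.

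The single names varied widely about these values. Among the 64 names with at least 500 reads, A at base 10 ranged from 11.7% to 56.6% over Lx names with a median of 26.02%, and from 0.330% to 85.5% over 38 L1M names with a median of 20.1%. The extremes of L1M were names led by 1 sequence or by 1 shared 5′ end. L1M3c, at the low end, had 94.1% of its reads in 1 sequence. L1ME2, at the high end, had 72.2% of its reads on the shared 5′ end printed above, and L1ME names together went from 51.3% A at base 10 to 26.1% without those reads. In Lx the highest value was that of Lx3C and the lowest that of Lx2. Reads of 29 to 31 nt ranged from 6.29% to 47.9% over Lx names and from 0.0472% to 55.8% over L1M names.

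Between genotypes, edgeR's quasi-likelihood test on counts per name called 0 of the 115 old names that passed the filter of 1 CPM in 2 libraries (Benjamini-Hochberg adjusted over 793 transposon names). It called 0% of all 793 names, and DESeq2 also called 0. At an unadjusted p under 0.05 edgeR had 0 old names higher and 1 lower in the knockdown, beside 1.26% and 0.757% of all names. The 2 names that did not pass, L1M3de and L1M3f, had 4 and 3 reads. Of the 115 fitted log2 differences, 60 were above 0 and 55 below, with a median of 0.02, beside a median of -0.01 over all names. Lx had 15 above and 6 below, L1M 41 and 40, L1Lx 0 and 4, and young LINE1 6 and 24. Scaling by mature miRNA reads in place of TMM, edgeR's trimmed mean of M-values, moved the median of all names to -0.18, and 29 old names then stood above 0 and 86 below. The signs of Lx names followed that choice, with 4 above and 17 below, and counting each distinct sequence once gave 5 and 16. Single libraries also set these counts: without wild type replicate 1, Lx had 8 above and 13 below and young LINE1 23 and 7, and without knockdown replicate 1, L1Lx had 2 and 2.

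Both knockdown libraries stood above both wild-type libraries for 9 of the 115 names (7.83%) and below for 15 (13.0%), beside 12.5% and 11.6% of all transposon names. These shares are near the background. By RPM, 4 Lx names had both knockdown libraries above: Lx2, Lx2B, Lx3A and Lx3B.

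Lx8, the Lx name with most reads, had 1792, 2277, 2077 and 2310 RPM, and the genotypes overlapped (log2 0.15, SE 0.33). It drew 26.7% of its 1-place reads from locus 15-qD1-17920. Lx9 had 1191, 1702, 733 and 1708 RPM, with knockdown replicate 1 alone low (log2 -0.21, SE 0.42). In the other 3 libraries 64.9% of its 1-place reads lay in the 28 loci that were nearly silent in that library. Lx5c had 889, 1248, 1117 and 1118 RPM, Lx7 707, 830, 754 and 823, and Lx5 675, 798, 637 and 706. Lx6 had 518, 645, 718 and 570 RPM and Lx8b 452, 564, 480 and 522. None of these 5 separated the genotypes, and their log2 differences lay from -0.10 to 0.19.

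Lx2 had 4501, 3902, 6749 and 6548 reads, or 783, 733, 1551 and 932 RPM. Both knockdown values were above both wild-type values (log2 0.75, SE 0.37; edgeR unadjusted p = 0.0663, adjusted 0.996). Of those reads 1615, 990, 4447 and 2930 were of sequences 1 base from an ncRNA or miRNA sequence. Without them its log2 difference was 0.034, and with sequences of 1 genome place only 0.16.

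Among L1M names, L1MB5 had 1121, 1574, 1645 and 1528 RPM (log2 0.28, SE 0.34), and 95.1% of its 1-place reads came from locus 9-qC-31469. L1M2 had 1075, 1568, 1154 and 1850 RPM, with 71.6% of its 1-place reads from the same locus. L1M4 had 738, 737, 652 and 773 RPM, mostly from 17-qA3.3-26735 (66.9%). L1ME2 had 549, 672, 594 and 313 RPM, lowest in knockdown replicate 2 (log2 -0.39, SE 0.41), and 95.6% of its 1-place reads came from 17-qA3.3-27363. L1MD had 329, 452, 389 and 479 RPM, with 52.95% of its 1-place reads from locus 15-qD3-14639, and L1M5 had 315, 454, 237 and 457. L1MD2 had 313, 381, 416 and 390 RPM, with 78.0% of its 1-place reads from locus 4-qD3-2082. A single locus thus held most placed reads of L1MB5, L1M2, L1M4, L1ME2, L1MD and L1MD2.

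L1MC had 439, 646, 109 and 660 RPM, so that knockdown replicate 1 stood at 24.8% of the lowest other library while replicate 2 held the most (log2 -0.46, SE 0.92). In the other 3 libraries 52.0% of its 1-place reads lay in the 28 nearly silent loci. L1MA10 went further, with 484, 601, 40 and 1045 reads and 94.2% in those loci. L1MA10, L1MEg1 and L1MEh were the old names with under 20% of the lowest other library in knockdown replicate 1, 3 of 115 or 2.61%, beside 4.04% of all transposon names.

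Without knockdown replicate 2, edgeR called 6 old names at an adjusted p under 0.05, all L1M: L1MA10, L1MC, L1MEc, L1M3b and L1MEg1 lower and L1MCb higher. That fit called 1.54% of all names higher and 5.25% lower. Without knockdown replicate 1 it called 1 old name, L1MEa, lower, beside 0.515% of all names in each direction. L1MEa had 27, 20, 16 and 1 reads, 82.8% of them of 1 sequence. In these fits the lone knockdown library is taken to vary like the wild type. The replicates of the knockdown also differed more than those of the wild type, by a chi-square divided by its degrees of freedom of 114 against 14.5 over the 98 old names with at least 50 reads.

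On the lower side, the 3 lowest unadjusted p values with all libraries were those of rare names. L1MEg1 had 23, 17, 0 and 6 reads (log2 -2.78, SE 0.93). Its p in edgeR's quasi-likelihood fit was 0.0106 before and 0.996 after Benjamini-Hochberg adjustment. L1MEg2 had 6, 6, 3 and 1 reads, and L1MEa is given above. On the higher side, after Lx2, X9_LINE had 46, 51, 58 and 95 reads, with both knockdown values above both wild-type values by RPM, and L1M3c had 376, 475, 764 and 505. In the shallowest library a name with no read could still stand at 0.689 RPM, the level of 3 reads.

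Outside Lx and L1M, L1Lx_III had 536, 603, 216 and 737 RPM, lowest in knockdown replicate 1, and 76.3% of its 1-place reads lay in locus 7-qB5-6255. L1Lx_I had 552, 514, 389 and 509 RPM, with both knockdown values below both wild-type values (log2 -0.21, SE 0.37). L1Lx_IV had 406, 410, 299 and 415 RPM, and L1_Rod 202.1, 252.5, 250 and 189. In L1P, L1P5 had 1, 6, 2 and 9 reads and L1PB4 3, 5, 2 and 7.

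Old LINE1 reads with 1 genome place lay mainly in piRNA loci. The table's own piRNA names gave 214 loci, and 209 of them held at least 1 such read. They took 76.3%, 86.6%, 82.5% and 86.2% of the placed reads, beside 75.5%, 86.5%, 83.9% and 85.6% of all placed 25 to 31 nt reads, so old LINE1 reads were in loci about as often as any. L1M was at 83.4%, 90.6%, 88.5% and 90.4%, and Lx at 73.1%, 84.9%, 79.8% and 84.1%. Young LINE1 was at 54.7%, 71.5%, 70.0% and 68.0%. Of the old reads in loci, 99.7%, 99.7%, 99.8% and 99.7% were on the main strand of the locus. That strand was taken from the placed piRNA reads of these same libraries, and the locus transcript was not measured.

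Reads in and out of loci differed at base 1. Old LINE1 reads in loci had U first in 90.3%, 90.1%, 90.5% and 91.0%, and those outside in 67.4%, 72.1%, 72.7% and 83.4%. Young LINE1 reads of 1 place had U first in 92.0%, 91.4%, 93.8% and 92.2% in loci, above old LINE1 in each library. Outside loci young LINE1 had 62.7%, 69.9%, 67.3% and 78.5%, below old LINE1 in each library. In old LINE1, A at base 10 was 25.8%, 25.8%, 24.7% and 25.4% in loci and 23.8%, 25.05%, 22.9% and 24.2% outside. In young LINE1 it was 25.1%, 25.6%, 24.5% and 27.3% in loci and 28.1%, 28.3%, 27.7% and 27.5% outside. Outside loci, 39.2%, 36.4%, 42.2% and 38.4% of old LINE1 reads lay sense to an exon of GENCODE M39. A further 39.5%, 33.1%, 31.5% and 29.3% lay sense to an intron, whereas antisense exon reads were 1.15% to 2.19%.

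A few loci supplied much of the old LINE1 reads with 1 genome place. The 10 with most old LINE1 reads held 49.5%, 54.6%, 64.9% and 51.9% of these placed reads, and 54.5% over all libraries. The first, 9-qC-31469, spans chr9:67598534-67641068 on the minus strand and held 12.4%, 15.0%, 16.2% and 16.5%, of which 90.2% was L1M. Its window chr9:67630001-67640000 was 93.6% L1MB5, and its window chr9:67600001-67610000 96.0% L1M2, both sense to introns of the lncRNA Gm30936. The neighbouring loci 17-qA3.3-26735 (chr17:27544171-27586457, plus strand) and 17-qA3.3-27363 (chr17:27507250-27544002, minus strand) lie on main strands pointing away from each other. Together they gave 2485, 2756, 4436 and 2052 RPM of old LINE1, highest in knockdown replicate 1 and lowest in replicate 2 (exact permutation p = 1). In 17-qA3.3-27363 the window chr17:27520001-27530000 held 53.8% L1ME2. Of the other leading windows, chr15:59140001-59150000 in 15-qD1-17920 was 89.0% Lx8, chr17:27550001-27560000 was 31.2% Lx6 and chr17:27560001-27570000 34.9% Lx5c.

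For names given above as low in knockdown replicate 1, the share of 1-place reads of the other 3 libraries in the loci nearly silent there follows. L1MA10 had 94.2%, L1MEg1 88.9%, L1MEc 79.5%, L1M3b 78.5%, Lx9 64.9%, L1MC 52.0% and L1MEh 45.0%. L1Lx_III, low as well, had 2.75%. Under 50% of the lowest other library stood 8 of the 115 old names, not all listed here, and Lx9 stood at 61.5%. Old LINE1 reads placed in those 28 loci were at 2309, 3972, 7.81 and 3540 RPM, or 16.4%, 22.0%, 0.0503% and 20.2% of the placed reads. The loci were chosen by the reads of all their piRNAs in these libraries, old LINE1 reads included, so the low value is a description. In the other loci old LINE1 was at 8446, 11632, 12809 and 11547 RPM, and outside loci at 3344, 2416, 2712 and 2407, and in both the genotypes overlapped (exact permutation p = 0.667 each). Over all placed 25 to 31 nt reads the 28 loci took 14.6%, 21.5%, 0.0761% and 19.3%.

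**Figure D5:**
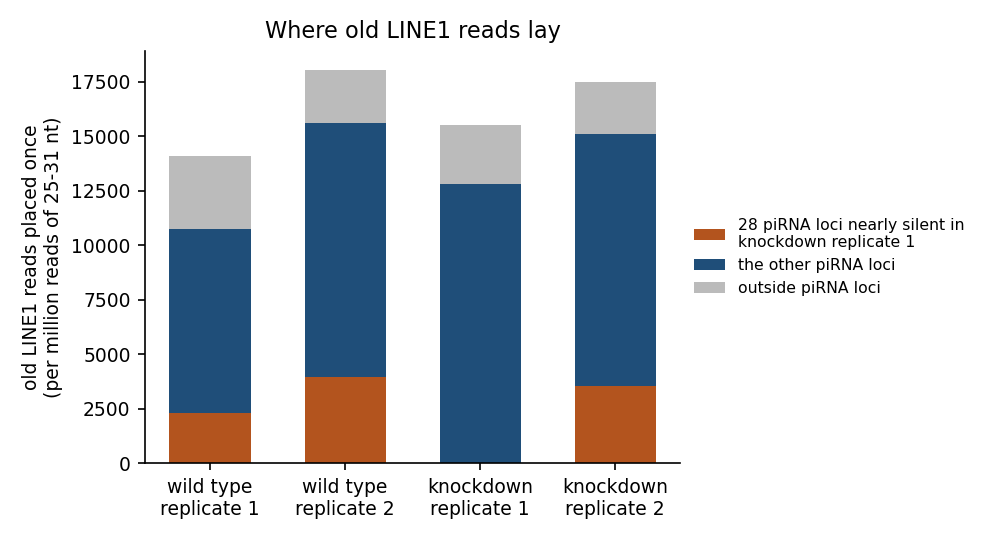
Old LINE1 reads with 1 genome place per 1000000 reads of 25 to 31 nt, stacked by place: the 28 piRNA loci nearly silent in knockdown replicate 1, the other piRNA loci, and outside loci. The lowest layer is 7.81 RPM in knockdown replicate 1 and 2309 to 3972 RPM in the other libraries.

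Overlaps of 10 nt between 5′ ends on opposite strands, the mark of ping-pong pairs, were scored in 1-place old LINE1 reads as a Z against overlaps of 1 to 9 and 11 to 20 nt. Counted by reads, Z was 1.23, -0.136, 1.35 and 3.46. Both knockdown values lay above both wild-type values (exact permutation p = 0.333, the smallest possible). Counted by distinct sequences it was 6.73, 6.38, 5.48 and 7.75, and the genotypes overlapped (exact permutation p = 1). By distinct sequences every library stood over 5 SD above its other overlap lengths, whereas by reads 1 of 4 libraries was below 0. By reads, Lx had a Z of 5.10, 1.27, 5.38 and 5.39 and L1M one of -0.272, -0.239, 0.473 and 2.04. By distinct sequences, Lx had 8.69, 5.00, 3.59 and 5.59 and L1M 2.79, 4.24, 3.41 and 7.66, so both sets were above 0 in every library. Inside the piRNA loci the Z of distinct old LINE1 sequences was 6.47, 5.68, 5.28 and 6.85. Those loci held 154, 90, 89 and 184 of the 158, 97, 91 and 228 pairs of 10 nt. Outside the piRNA loci the Z of distinct old LINE1 sequences was 1.48, 2.03, -0.182 and 4.89, from at most 7 pairs of 10 nt in each of the first 3 libraries. Distinct young LINE1 sequences of 1 place gave 0 pairs of 10 nt in every library. They had at most 6 pairs of 1 to 20 nt, too few to compare the sets.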

How the data were processed

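The deposited table holds raw read counts, which the authors made for each sequence, library and annotation without normalization, and a ratio, the authors' scaling factor, which was used only as an alternative scaling by mature miRNA reads. The submitters' processing notes list cutadapt, an adaptor trimmer, and the build mm39. Which aligner was used, and with how many mismatches, is not given in the sources used here. Members and lists were chosen with earlier results of these data known.

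Each sequence got 1 name, the one with most reads, and was counted once per library. Of old LINE1 reads, 5.93% were of sequences with over 1 name. Sequences were matched exactly to GRCm39 and annotated with GENCODE M39. Counts per transposon name (LINE, SINE and LTR, 793 with 1 CPM in at least 2 libraries) were tested with edgeR 4.0.16 (quasi-likelihood, robust, TMM) in R 4.3.3, and with DESeq2 1.42.0 as an alternative. TMM factors were 0.994, 1.03, 0.964 and 1.01. Tested on simulated data for these 793 names at the fitted biological coefficient of variation of 0.389, the edgeR test recovered 0% of 2-fold and 56% of 4-fold changes. Shares, bases and lengths were compared by exact permutation or sign-flip tests in Python 3.11.15.

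Named were the 8 Lx and 8 L1M names with most reads, both L1P names, 4 further names by reads, the 3 lowest p in each direction, up to 3 sequences a set, and 6 windows of 10000 bases. Other L1P sequences are not reported here.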

Additional observations from a re-analysis of the deposited data

How the results depend on the processing

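The count of old names called was 0 with DESeq2, DESeq2's size factors, miRNA scaling, no filter on low counts, names as deposited, sequences of 1 name, sequences of 1 genome place, distinct sequences, lengths of 26 to 30 nt and the set without sequences 1 base from an ncRNA or miRNA, an alternative chosen after the data were seen. Leaving out 1 library gave 0 to 6. With the replicate number as a block the count was 0. Same-numbered replicates deviated together with r = 0.25 over 793 names and 0.15 over old names, and the numbers are not stated to mark a shared litter or day. The knockdown minus wild-type shares, 0.0462 points for old LINE1, 0.0397 for Lx and 0.0325 for L1M, are equal with and without the block by construction in this balanced design. First-base U and base 10 A of old LINE1, Lx and L1M against young LINE1 kept the direction of their means under every alternative run. So did Lx below L1M in first-base U, in the share of 29 to 31 nt and in mean length. The split by piRNA loci was not among these alternatives. Inside loci first-base U was lower in old than in young LINE1 in each library. Base 10 A there was higher in old LINE1 in every library but knockdown replicate 2. With 1 genome place, however, base 10 A against young LINE1 was only -1.25 points for old LINE1, -1.30 for Lx and -0.94 for L1M, and L1M was above young LINE1 in both wild-type libraries (26.6% and 26.7% against 26.5% and 26.4%).

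Values that changed sign are as follows, with the cause not tested. Counting distinct sequences gave a knockdown minus wild-type share of -0.0778 points for old LINE1 and -0.0544 for Lx, Lx first-base U 1.89, and Lx minus L1M at base 10 1.33. Without the sequences 1 base from an ncRNA or miRNA these were -0.00142, -0.0084, 3.08 and 0.635. With 1 genome place, the Lx share was -0.00831, Lx first-base U 2.7 and Lx base 10 A 0.608. There the share of 29 to 31 nt against young LINE1 was 3.57 for old LINE1 and 8.18 for L1M. The mean length was 0.318 nt for old LINE1, 0.0484 for Lx and 0.643 for L1M. Over reads of any number of places, these shares were -6.58 and -3.88 points. The mean lengths were then -0.378, -0.563 and -0.155 nt. Lengths of 26 to 30 nt gave first-base U of old LINE1 -0.871, sequences of 1 name Lx first-base U 2.19, and names as deposited Lx minus L1M at base 10 0.0849.

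Leaving out 1 library, the share difference ranged from -0.168 to 0.26 points for old LINE1, -0.0732 to 0.153 for Lx, -0.0659 to 0.131 for L1M and -4.67e-05 to 9.02e-05 for L1P. First-base U ranged from -2.06 to 3.29 for old LINE1 and -3.94 to 2.62 for Lx, and Lx base 10 A from -3.14 to 0.911. The share of 29 to 31 nt ranged from -13.1 to 4.92 for old LINE1, -9.24 to 5.16 for Lx and -17.3 to 4.42 for L1M, and mean length from -0.607 to 0.24, -0.47 to 0.261 and -0.739 to 0.208 nt. Lx minus L1M at base 10 ranged from -1.35 to 0.0089.

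Log2 differences of names changed sign with miRNA scaling for Lx8 (-0.046), Lx5c (-0.12), Lx7 (-0.11), Lx6 (-0.0696), Lx8b (-0.18) and L1PB4 (-0.034). Distinct sequences did so for Lx8 (-0.033), Lx5c (-0.21), Lx7 (-0.071), Lx6 (-0.068), Lx8b (-0.014) and L1M3c (-0.54), and lengths of 26 to 30 nt for Lx6 (-0.056), L1PB4 (-0.13) and L1M3c (-1.28). Lx8b was -0.0094 with DESeq2's size factors, -0.0093 with DESeq2, -0.013 with names as deposited and -0.0304 with 1 genome place. L1PB4 was -0.061 with 1 genome place, and L1M4 0.011 and L1_Rod 0.0011 with names as deposited. Leaving out 1 library, the range was -0.0050 to 0.31 for Lx8, -0.92 to 0.26 for Lx9, -0.11 to 0.35 for Lx5c, -0.025 to 0.17 for Lx7, -0.20 to 0.0060 for Lx5, -0.0058 to 0.36 for Lx6 and -0.12 to 0.16 for Lx8b. It was -0.13 to 0.51 for L1M2, -0.12 to 0.0899 for L1M4, -0.94 to 0.021 for L1ME2, -2.26 to 0.31 for L1MC, -0.011 to 0.41 for L1MD, -0.64 to 0.27 for L1M5, -0.0802 to 1.24 for L1M3c, -7.21 to -2.03 for L1MEg1 and -4.69 to -0.15 for L1MEa. For L1P5 it was -0.39 to 2.27, for L1PB4 -0.57 to 0.54, for L1Lx_III -1.34 to 0.39, for L1Lx_IV -0.39 to 0.048 and for L1_Rod -0.24 to 0.20.

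The 35 L1P reads were too few for a comparison between libraries, and with 2 libraries a group the exact tests had no p under 0.333.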
